A study of Homo sapiens with 6 samples.

Results

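A set of 10 genes of the regulated secretory pathway was followed in D283, a human medulloblastoma line long kept in culture. The genes are CHGA, CHGB, SCG2, SCG3, SCG5, VGF, PCSK1, PCSK2, PCSK1N and CPE. They were chosen by symbol, and all 10 were found among the 50883 genes of the count table. Total RNA was sequenced from 6 cultures. In 3 of them D283 had received a GFP-marked lentivirus with a non-targeting guide RNA (control), and in the other 3 the lentivirus carried a guide against OTX2 (OTX2 knockout), with 7 days of culture before collection in both groups. The OTX2 protein is a homeodomain regulator of the embryonic brain and retina. The origin of Cas9, the editing efficiency and any sorting on GFP remain not given in the sources used here. All cultures come from 1 line, so the p-values cover only the spread between these cultures of that line.

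Neurons and endocrine cells store peptides in dense-core vesicles and release them on a calcium signal. Granins are acidic proteins that aggregate in the trans-Golgi network, help to load these vesicles and are themselves cut into peptides. The convertases encoded by PCSK1 and PCSK2 cut precursors after pairs of basic residues, and the carboxypeptidase encoded by CPE trims the basic residues that are left. PCSK1N encodes proSAAS, an inhibitor of the PCSK1 enzyme, and SCG5 encodes the chaperone that PCSK2 needs to become active. In pathology CHGA is a common stain for neuroendocrine and neuronal differentiation.

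Totals ran from 54540645 to 62166870 counts per library. Levels are given as CPM (counts scaled to library size, with edgeR's TMM factors), and 3 counts corresponded to between 0.0483 and 0.0550 CPM. OTX2 RNA stood at 1002, 979 and 909 CPM in control replicates 1 to 3 and at 765, 824 and 887 CPM in knockout replicates 1 to 3. The groups did not overlap, and an edited transcript can persist, so this is a weak check of the labels. All 7 markers listed for Group 3 medulloblastoma (OTX2, MYC, NPR3, GABRA5, IMPG2, CRX and NRL) passed the filter on low counts. Of the 8 markers of chromaffin and sympathetic cells, a lineage rich in granins, TH and SLC18A1 had 0 counts in all 6 libraries, and PNMT had 0 in control and 4, 7 and 8 in knockout. The 2 tested markers of that list both rose, PHOX2A from 1.64 to 2.49 CPM (edgeR adjusted p = 0.00238) and HAND2 from 3.81 to 4.64 CPM (edgeR adjusted p = 0.0379), both named after their values were seen. Exons of PHOX2A overlap INPPL1 by 29 bases, and INPPL1 held 95886 counts against 744 for PHOX2A, so the rise of PHOX2A is uncertain. Exons of HAND2 overlap HAND2-AS1, which held 16.3% as many counts. The list summed to between 5.12 and 6.12 CPM in control and between 6.97 and 7.88 CPM in knockout. The 6 immune markers summed to between 0.825 and 0.932 CPM in control and between 0.534 and 0.647 CPM in knockout. All 7 Group 3 markers, OTX2 itself among them, were called as lower in knockout, against 18.5% of all tested genes. The falls ran from 1.13-fold for CRX to 1.97-fold for NRL. Against a change of 1.5-fold, 2 of the 7 were called (edgeR glmTreat), IMPG2 and NRL. Exons of NRL overlap DCAF11, which held 270% as many counts, so its fall is uncertain. Of 7 pan-neuronal markers 6 were tested, 5 rose and 1 fell, while 39.7% of all tested genes were called and 21.2% as higher. Of those 6, ELAVL4 (0 counts in every control library) and RBFOX3 (3 to 5 counts) passed the filter only through the knockout libraries. The list summed to between 182.8 and 207.7 CPM in control and between 185.9 and 202.9 CPM in knockout. The astroglial list went from between 145.5 and 170.9 CPM in control to between 266.1 and 309.6 CPM in knockout. Nearly all of that sum was GJA1, which rose 1.81-fold and was the 1 of 2 tested genes called. The other, SLC1A2, averaged 3.03 CPM in the controls against 2.90 CPM (edgeR adjusted p = 0.722). GFAP, AQP4 and ALDH1L1 did not pass the filter (all named after their values were seen). The endothelial list went from between 2.51 and 3.88 to between 5.38 and 6.44 CPM. The oligodendroglial list, with 1 of 5 genes tested, went from between 1497 and 1530 CPM to between 1022 and 1051 CPM. Sums of the pituitary, the pancreatic and gut endocrine, and the fibroblast lists overlapped between groups. The part of these markers in the results for the 10 genes was not tested. In bulk RNA, more cells that express a gene and more RNA per cell cannot be told apart.

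In GENCODE release 29 (GRCh38) all 10 genes are protein-coding and lie apart from one another. The granin genes are CHGA at chr14:92923080-92935293 and CHGB at chr20:5911430-5925361, both on the plus strand, SCG2 at chr2:223596940-223602503 and VGF at chr7:101162509-101165593, both on the minus strand, and SCG3 at chr15:51681353-51721031 on the plus strand. The convertase genes are PCSK1 at chr5:96390415-96434143 on the minus strand and PCSK2 at chr20:17226107-17484578 on the plus strand. Their partners are PCSK1N at chrX:48831094-48835633 on the minus strand and SCG5 at chr15:32641676-32697098 on the plus strand, and CPE lies at chr4:165361194-165498320 on the plus strand.

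Upstream sequence is shown for CHGA, PCSK1 and VGF because they had the highest ratios of mean CPM between knockout and control, and for CPE because it was the most abundant of the 10 genes. Each line gives 150 bases from 5′ to 3′ on the strand of the gene, taken from the RefSeq promoter table on GRCh38.p14. Capitals mark matches to TGACGTCA, the palindromic core of the cAMP response element that CREB and ATF factors bind, and to TAATCC, the core bound by OTX homeodomains, each searched on both strands.
CHGA: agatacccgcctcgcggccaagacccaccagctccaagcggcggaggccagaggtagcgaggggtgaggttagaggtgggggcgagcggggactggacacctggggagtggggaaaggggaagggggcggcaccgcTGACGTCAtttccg
PCSK1: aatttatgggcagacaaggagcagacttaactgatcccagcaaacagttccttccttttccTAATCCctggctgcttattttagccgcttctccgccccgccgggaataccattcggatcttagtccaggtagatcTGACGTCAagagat
VGF: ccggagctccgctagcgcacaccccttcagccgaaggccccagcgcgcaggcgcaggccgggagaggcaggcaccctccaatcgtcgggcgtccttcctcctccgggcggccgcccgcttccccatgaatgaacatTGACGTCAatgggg
CPE: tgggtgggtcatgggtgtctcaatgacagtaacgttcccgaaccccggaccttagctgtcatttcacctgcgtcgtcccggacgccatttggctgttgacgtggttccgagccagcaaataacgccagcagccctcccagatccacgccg

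The CHGA stretch lies on the plus strand at chr14:92922960-92923109 and ends 41 bases before the RefSeq start, with its last 30 bases inside an exon in GENCODE release 29. The PCSK1 stretch lies on the minus strand at chr5:96433312-96433461, inside the gene as GENCODE draws it but outside its exons. The VGF stretch lies on the minus strand at chr7:101165635-101165784, and the CPE stretch on the plus strand at chr4:165378792-165378941, inside the CPE gene but outside its exons. The table held 10 promoters for 8 of the 10 genes, each reaching 250 bases before and 50 after the start, and CHGB and SCG2 had no entry. TGACGTCA was found once each for CHGA, PCSK1 and VGF, 3 of the 8 genes with an entry, starting 54, 77 and 79 bases before the start. In the whole table it was found for 2.25% of 27305 genes and in 1.85% of the 35116 promoters. For PCSK1 the match is in 1 of its 2 promoters. TAATCC was found in the same PCSK1 promoter, 152 bases before the start, against 6.36% of all promoters, and in none of the others. The motif matches do not overlap, and they are descriptions of letters only.

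Expression of the granins was higher in the knockout libraries for CHGA, CHGB, SCG2 and SCG3, and CPE and PCSK1 were higher as well. Of the 10 genes, 8 passed the filter on low counts, and 7 of these rose and 0 fell (adjusted p under 0.05; edgeR quasi-likelihood fit, Benjamini-Hochberg over 18420 genes). Over all tested genes 39.7% were called, 21.2% as higher in knockout. Against a change of 1.5-fold in place of no change, glmTreat called 5 members (CHGA, CHGB, SCG2, PCSK1 and CPE), while it called 6.55% of all tested genes, 5.70% as higher in knockout. Among genes called against no change, an estimated rise above 2-fold was seen for 4 members (CHGA, CHGB, SCG2 and PCSK1) and for 6.04% of all tested genes. Every knockout library lay above every control library for 7 of the 8 tested members, and groups were apart in either direction for 49.2% of all tested genes; genes without overlap and higher in knockout made up 26.2% of all. PCSK1 passed the filter only through the knockout libraries, where it was high, so the count over genes that passed is not by itself a measure of how many of the 10 genes responded. The tested gene that was not called was SCG5, and PCSK2 and VGF were too low to be tested. With library totals alone in place of TMM, 71.9% of called genes were rises instead of 53.4%, and 7 members rose with either scaling.

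**Figure D1:**
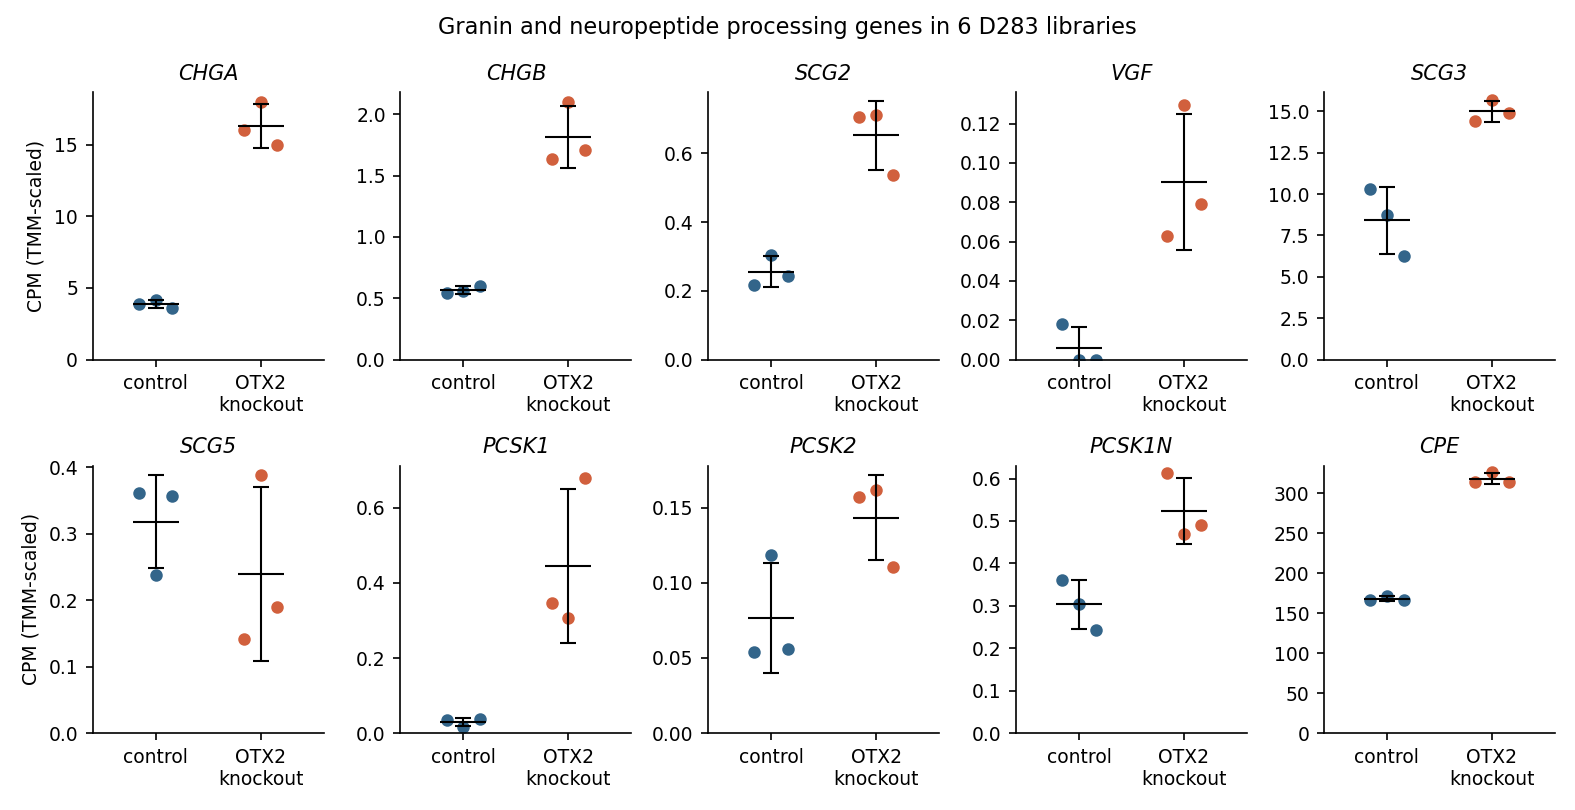
CPM of the 10 genes in each of the 6 libraries, 1 panel per gene, with points for libraries and bars for the mean ± SD of 3 libraries. The y axes are linear, start at 0 and differ between panels; the groups overlap for SCG5 and PCSK2 and are separate for the other 8 genes.

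CHGA encodes chromogranin A, the founding granin. It stood at 3.88, 4.18 and 3.58 CPM in control replicates 1 to 3 and at 16.03, 17.9 and 14.9 CPM in knockout replicates 1 to 3. All 3 knockout libraries lay far above all 3 control libraries. The control mean was 3.88 ± 0.300 and the knockout mean 16.3 ± 1.52 CPM (SD, n = 3 each), which is a rise of 2.07 on the log2 scale (SE 0.09; edgeR adjusted p = 1.63e-10). CHGB, which encodes the closest relative of chromogranin A, stood at 0.542, 0.559 and 0.6003 CPM in control and at 1.63, 2.10 and 1.71 CPM in knockout. These groups did not overlap either. CHGB rose 3.2-fold, or 1.67 in log2 (SE 0.18; edgeR adjusted p = 2.4e-06).

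The secretogranins were less uniform. SCG2 encodes secretogranin II, the precursor of the peptide secretoneurin. It stood at 0.217, 0.305 and 0.244 CPM in control and at 0.707, 0.711 and 0.537 CPM in knockout, and the lowest knockout library lay above the highest control. SCG2 rose by 1.34 in log2 (SE 0.26; edgeR adjusted p = 0.000727). SCG3 encodes secretogranin III, which links granin aggregates to cholesterol-rich vesicle membrane. It stood at 10.3, 8.71 and 6.23 CPM in control and at 14.4, 15.7 and 14.9 CPM in knockout. The control libraries of SCG3 were spread widely, with control replicate 3 the lowest, while the knockout libraries lay close together. It rose by 0.83 in log2 (SE 0.12; edgeR adjusted p = 6.1e-05), a value that ran from 0.66 without control replicate 3 to 0.997 without control replicate 1. Against 1.5-fold, SCG3 was not called (adjusted p = 0.10 by glmTreat).

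VGF, a nerve growth factor-inducible granin that yields several neuropeptides, was close to silent. It had 1, 0 and 0 counts in control replicates 1 to 3 and 4, 8 and 5 counts in knockout replicates 1 to 3, that is 0.0628, 0.129 and 0.0790 CPM in knockout. Over the groups 17 counts stood against 1, a ratio of 15.1 with a 95% counting interval from 2.37 to 631. VGF did not pass the filter. In a fit without the filter its adjusted p was 0.00837 by edgeR and 0.0455 by DESeq2, and it was 0.0571 without control replicate 2 and 0.10 without knockout replicate 2 in that edgeR fit. Without the filter 22.8% of 33201 genes were called and 12.6% as higher, 17.9% had groups apart with knockout higher, and the fit had infinite prior degrees of freedom against 10.6 with the filter, so its p-values were far smaller for most members.

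**Figure D2:**
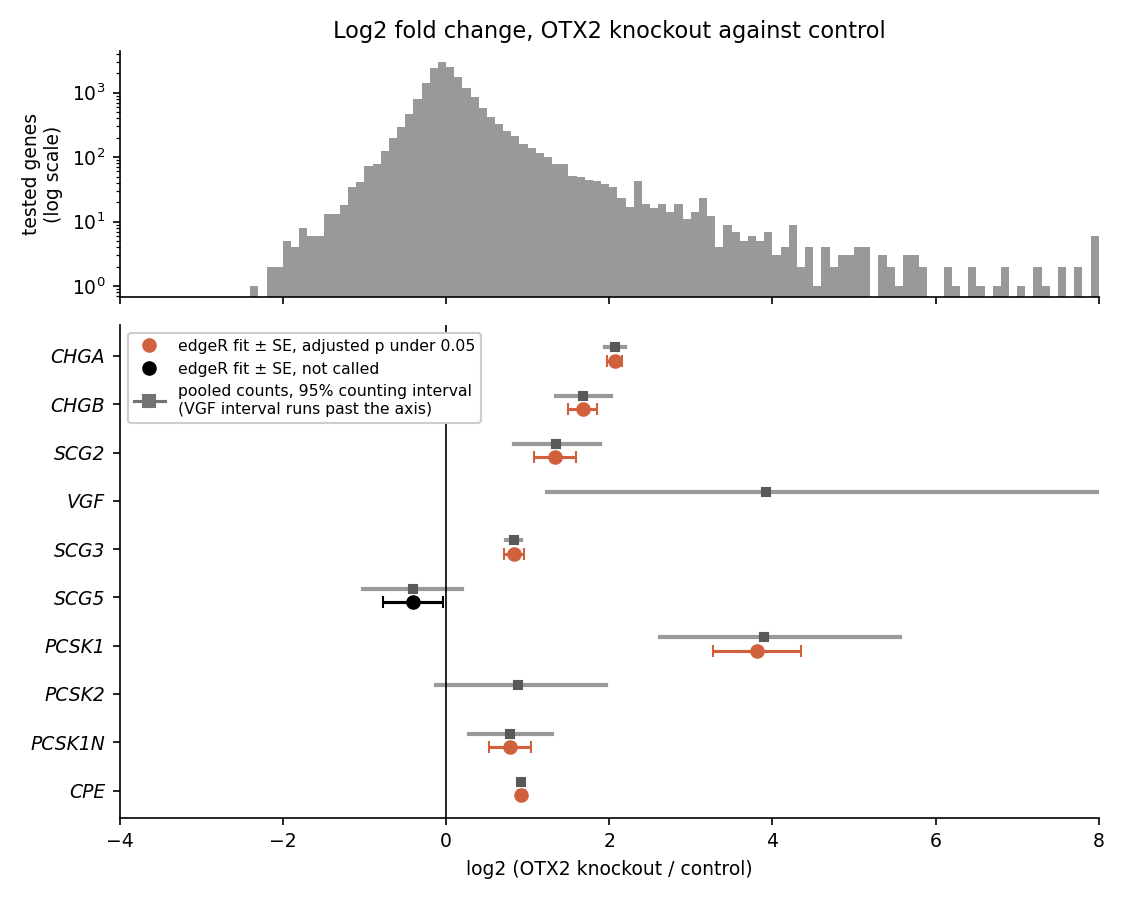
Upper panel, log2 fold changes of the 18420 tested genes on a log count axis, with values past the limits gathered in the end bins; lower panel, the edgeR log2 fold change ± SE of the 8 tested members (circles) and the log2 ratio of pooled counts with its 95% counting interval for all 10 (squares). SCG5 is the member left of 0, and the intervals of SCG5 and PCSK2 cross 0.

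Of the convertases, PCSK1 rose from almost nothing and PCSK2 stayed at the limit of detection. PCSK1 had 2, 1 and 2 counts in control replicates 1 to 3 and 22, 19 and 43 counts in knockout replicates 1 to 3. Knockout replicate 3 was the highest and the groups did not overlap. The ratio over pooled counts was 14.9, with a 95% counting interval from 6.15 to 47.1, and the fit gave 3.81 in log2 (SE 0.54; edgeR adjusted p = 4.92e-05). Even so the knockout mean was 0.444 ± 0.205 CPM (SD, n = 3). PCSK2 had 3, 7 and 3 counts in control and 10, 10 and 7 counts in knockout, so that knockout replicate 3 and control replicate 2 held the same number. Its ratio was 1.84, with a 95% counting interval from 0.92 to 3.89, and a change was not detectable at this depth (adjusted p = 0.319 in the unfiltered edgeR fit and 0.46 by DESeq2).

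The binding partners of the convertases did not move alike. PCSK1N, the inhibitor, stood at 0.361, 0.305 and 0.244 CPM in control and at 0.612, 0.469 and 0.490 CPM in knockout, with no overlap. It rose by 0.78 in log2 (SE 0.26; edgeR adjusted p = 0.0257). That call was the least secure of the 7: the adjusted p was 0.0676 without control replicate 2, 0.102 without control replicate 3, 0.104 without knockout replicate 1 and 0.14 by DESeq2. SCG5, the PCSK2 chaperone, stood at 0.361, 0.237 and 0.356 CPM in control and at 0.141, 0.388 and 0.190 CPM in knockout. Knockout replicate 2 was the highest of all 6 libraries and the other knockout libraries were the lowest. The fitted log2 difference of SCG5 was -0.40 (SE 0.37; edgeR adjusted p = 0.419), and pooled counts gave a ratio of 0.754 with a 95% counting interval from 0.495 to 1.14.

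CPE carried most of the RNA of the set. It stood at 166, 171 and 166 CPM in control and at 314, 326 and 314 CPM in knockout, with little spread within either group. The control mean was 168 ± 3.00 and the knockout mean 318 ± 7.18 CPM (SD, n = 3 each), which is a rise of 0.92 on the log2 scale (SE 0.04; edgeR adjusted p = 4.81e-10). CPE made up between 91.4% and 93.6% of the counts of the 10 genes in control and between 89.6% and 90.3% in knockout. Without CPE, the other 9 genes summed to between 11.3 and 15.7 CPM in control and between 33.6 and 37.9 CPM in knockout. Within those 9 genes CHGA took between 24.7% and 31.6% of the counts in control and between 44.4% and 47.4% in knockout.

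Levels of different genes were compared per kilobase of the longest coding transcript in GENCODE release 29, as CPM per kilobase. In control the order was CPE at 69.4, SCG3 at 2.53, CHGA at 1.88, PCSK1N at 0.289, SCG5 at 0.257, CHGB at 0.222, SCG2 at 0.0990, PCSK2 at 0.0161, PCSK1 at 0.00594 and VGF at 0.00234 CPM per kilobase. The control libraries of SCG3 and CHGA overlapped on this scale, as did those of PCSK1N and SCG5, of SCG5 and CHGB, and of PCSK1 and VGF. In knockout CHGA, at 7.90, lay above SCG3, at 4.53 CPM per kilobase, with no overlap between their libraries. CHGB followed at 0.711, PCSK1N at 0.499, SCG2 at 0.253, SCG5 at 0.194 and PCSK1 at 0.0873 CPM per kilobase, and VGF and PCSK2, at 0.0351 and 0.0302, were last and overlapped. The libraries of SCG2 and SCG5 overlapped in knockout, as did those of SCG5 and PCSK1. CPE, at 131, was again the highest.

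Ratios within a library do not depend on library scaling, and 4 were compared by a two-sided exact permutation test, whose smallest possible p with 3 libraries against 3 is 0.1. All ratios are of counts per kilobase. The ratio of PCSK1 to PCSK2 was 0.621, 0.133 and 0.621 in control and 2.05, 1.77 and 5.73 in knockout. The groups did not overlap (exact p = 0.1, adjusted p = 0.133 over 4 ratios), but in control the ratio rests on 1 or 2 counts of PCSK1 and 3 to 7 of PCSK2, too few to order these genes in a library. The ratio of inhibitor to enzyme, PCSK1N to PCSK1, was 48.4, 87.2 and 31.5 in control and 8.59, 7.39 and 3.49 in knockout, with no overlap (exact p = 0.1, adjusted p = 0.133). Its control denominators are the same 1 or 2 counts, so this ratio mainly restates the rise of PCSK1. The ratio of SCG5 to PCSK2 was 25.5, 7.66 and 24.3 in control and 3.45, 9.19 and 6.56 in knockout, so these groups overlapped (exact p = 0.2, adjusted p = 0.2). The ratio of CHGA to CHGB was 8.86, 9.25 and 7.38 in control and 12.1, 10.6 and 10.8 in knockout, without overlap (exact p = 0.1, adjusted p = 0.133).

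**Figure D3:**
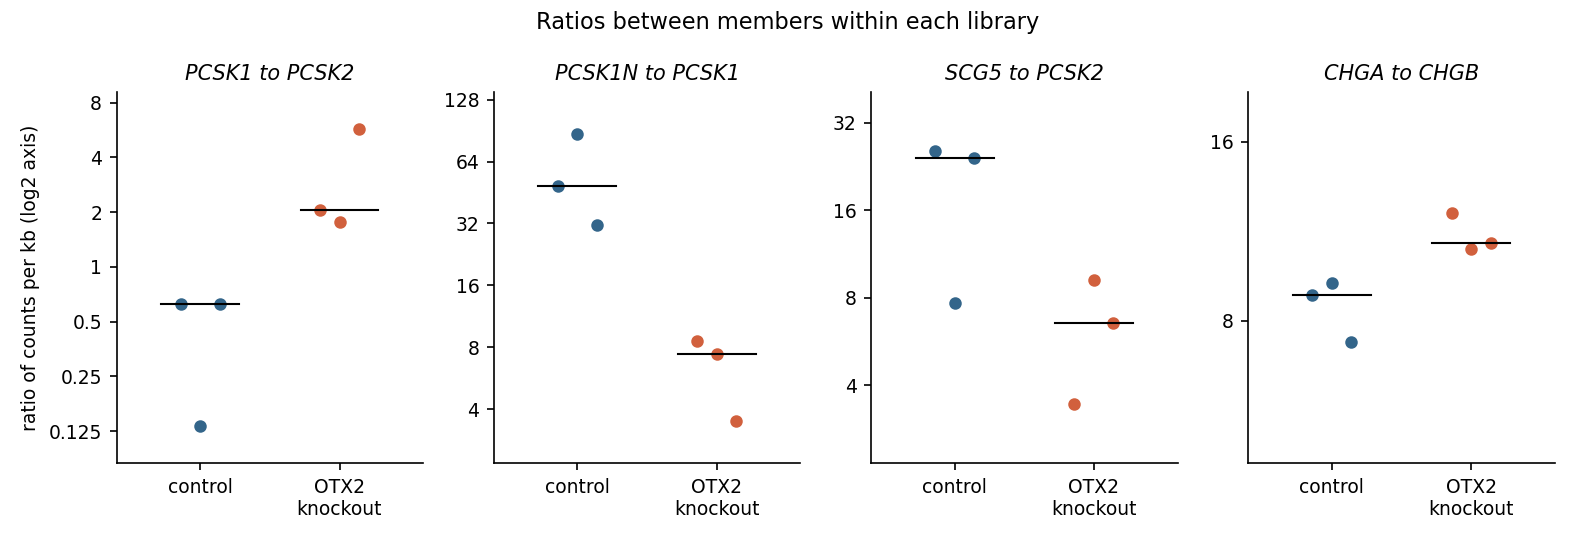
Ratios of counts per kilobase between members within each library, on log2 axes that differ between panels, with points for libraries and a line at the group median. The groups are separate for PCSK1 to PCSK2, PCSK1N to PCSK1 and CHGA to CHGB, and they overlap for SCG5 to PCSK2.

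Other genes of the pathway were grouped by role. Among dense-core vesicle genes, 24 of 32 were tested, 15 rose and 0 fell (list median 0.40 in log2, against 0.0062 over all tested genes). The share called was 62.5%, while over all tested genes 39.7% were called, 21.2% as higher. SYT4, a synaptotagmin of secretory vesicles, stood at 2.42, 2.64 and 2.31 CPM in control and at 11.3, 12.6 and 11.8 CPM in knockout. PTPRN, which encodes the vesicle membrane protein IA-2, rose 4.4-fold to 1.52 ± 0.342 CPM (SD, n = 3), and RAB26 rose from 13.6 ± 1.23 to 50.7 ± 3.34 CPM. RAB3B rose 2.29-fold and CYB561, the electron carrier of the vesicle membrane, 1.29-fold. SCAMP5 rose 5.22-fold, but its exons overlap RPP25, which held 40.9% as many counts. Exons of 4 others of the 15 overlap a gene with more counts than their own, which makes them uncertain: SLC18A2 (with PDZD8), BAIAP3 (with TSR3), RAB3A (with MPV17L2) and RAB27A (with PIGB). SYTL4 overlaps SRPX2, which held 29.2% as many counts. CADPS, a priming factor for vesicle release chosen after its values were seen, averaged 97.3 ± 2.41 CPM in the controls against 93.0 ± 1.76 CPM (edgeR adjusted p = 0.274).

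Processing enzymes outside the set of 10 moved in both directions. Of 16 tested out of 21, 6 rose and 4 fell (list median 0.05 in log2). This is a share called of 62.5%, against 39.7% of all tested genes (21.2% higher and 18.5% lower). PAM, which amidates the ends of peptides that convertases and CPE have trimmed, rose from 56.4 ± 0.693 to 75.7 ± 4.32 CPM (SD, n = 3 each). PCSK5, another convertase, rose 1.62-fold, and the endothelin-converting enzyme ECE1 rose 1.3-fold. PCSK6 fell 1.22-fold and the carboxypeptidase CPD, related to CPE, fell from 1091 ± 16.4 to 943 ± 35.3 CPM. ECEL1, a neuronal relative of the endothelin-converting enzymes, fell 2.28-fold. FURIN, named after its values were seen, averaged 25.4 CPM in the controls against 27.2 CPM (edgeR adjusted p = 0.183).

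Peptide precursors, the cargo of the pathway, mostly stayed low. Of 70 listed genes 17 had 0 counts in all 6 libraries and 19 were tested, of which 4 rose and 3 fell (list median 0.06 in log2). The share called, 36.8%, was near the 39.7% of all tested genes. NUCB2, the precursor of nesfatin, rose from 21.6 ± 1.11 to 36.8 ± 1.97 CPM (SD, n = 3 each), and NPS, the precursor of neuropeptide S, from 17.0 ± 1.47 to 27.5 ± 0.760 CPM. STC1, the glycoprotein hormone stanniocalcin, rose 4.67-fold and TAC3, the neurokinin B precursor, 2.3-fold, where exons of TAC3 overlap MYO1A with 12.9% as many counts. NPW, the neuropeptide W precursor, fell 1.49-fold. The other genes that fell, named after their values were seen, were TAC4 and PROK2. GAL, the galanin precursor and also named afterwards, averaged 12.2 ± 0.320 CPM in the controls against 13.6 ± 0.685 CPM (edgeR adjusted p = 0.0677). The number of rising precursors depended on the tool and scaling: it was 7 with library totals alone, 7 with DESeq2 and 11 without the filter.

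**Figure D4:**
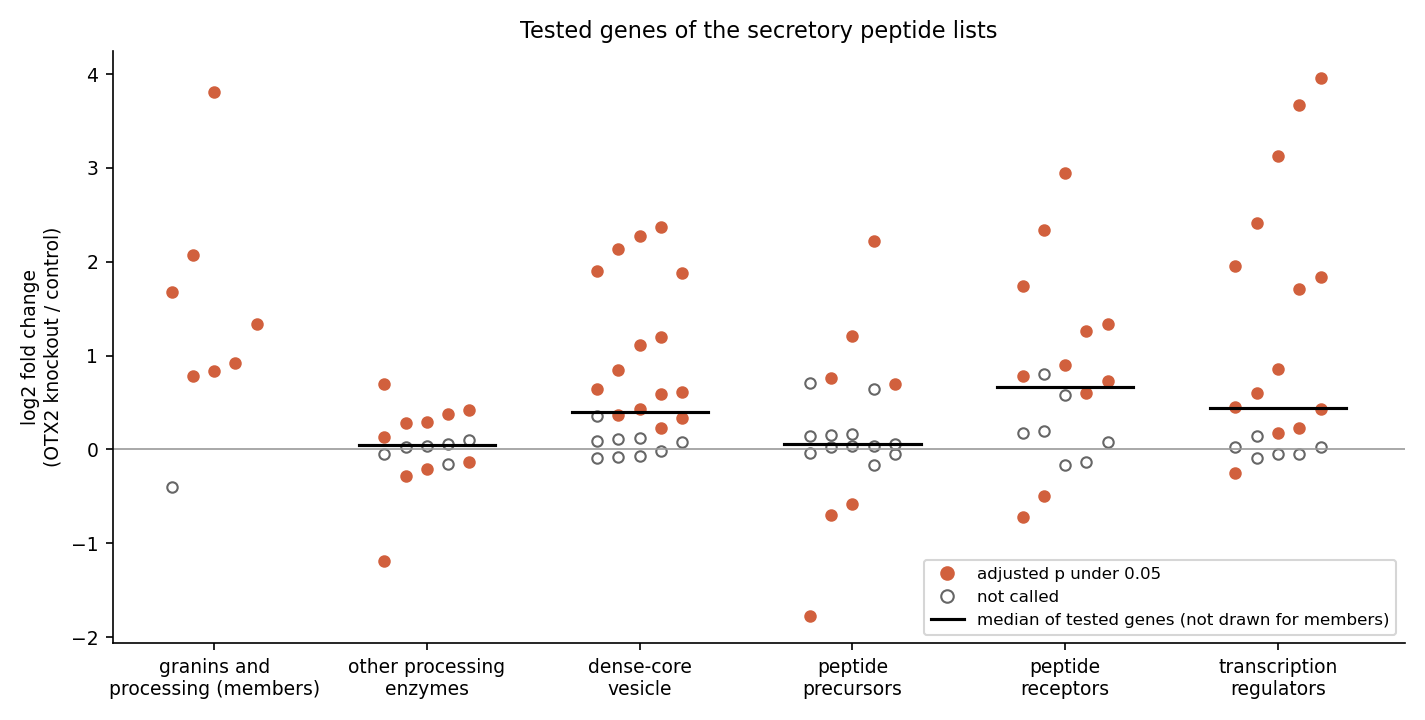
Log2 fold changes of the tested genes in the set of 10 and in 5 other lists, with filled points at an adjusted p under 0.05 and lines at the median of each of the other lists. In the dense-core vesicle list 15 points are filled above 0 and none below, while the precursor list has 4 above and 3 below. Over all tested genes 21.2% were called as higher and 18.5% as lower.

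Transcription factors and corepressors described for neuroendocrine genes mostly rose. Of 20 tested out of 22, 13 rose and 1 (ATF1, named after its values were seen) fell (list median 0.44 in log2), and 3 passed the filter only through the knockout libraries. These 3 are ST18, CREB3L1 and PAX6, of which CREB3L1 and PAX6 were also named afterwards. Exons of PAX6 overlap ELP4, which held 9713 counts against 93 for PAX6, so the rise of PAX6 is uncertain. The share called was 70%, against 39.7% of all tested genes. INSM1, a zinc finger factor of endocrine and neuronal precursors, stood at 1.37, 1.17 and 0.807 CPM in control and at 15.5, 18.9 and 18.04 CPM in knockout. NEUROD1, a basic helix-loop-helix factor of neurons and endocrine cells, rose 3.57-fold and MYT1, a zinc finger factor, 8.72-fold. ST18, of the MYT1 family, had 8, 7 and 6 counts in control and rose 12.9-fold to 1.61 ± 0.226 CPM (SD, n = 3). INSM2 rose 1.82-fold. REST, the repressor that holds CHGA, SCG2 and many other neuronal genes off outside neurons, was chosen after its values were seen. It stood at 99.4, 91.2 and 87.1 CPM in control and at 88.3, 86.8 and 94.0 CPM in knockout, so the groups overlapped (log2 difference -0.05; edgeR adjusted p = 0.552). Counts per gene do not separate transcript forms of REST. Among other listed genes named afterwards, RCOR2 rose 1.34-fold (edgeR adjusted p = 4.0e-05) and SRRM4 1.52-fold (edgeR adjusted p = 1.23e-06). RCOR1, RCOR3 and SIN3A were not called. CREB1, a factor that binds the cAMP response element and was also chosen afterwards, averaged 81.4 ± 2.36 CPM in the controls against 83.1 ± 3.55 CPM (edgeR adjusted p = 0.662). Its listed relatives, named afterwards too, moved in both directions. CREM rose 1.17-fold (edgeR adjusted p = 0.0228) and ATF1 fell 1.19-fold (edgeR adjusted p = 0.000989). CREB3L1, with 6, 6 and 4 counts in control, rose 3.95-fold (edgeR adjusted p = 0.000853). The part of these factors in the rise of the granins was not tested.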

How the data were processed

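RNA from 3 control and 3 OTX2 knockout cultures of D283 was compared. The authors deposited whole-number counts per gene symbol, unnormalized, with 1 column per library. STAR and hg38 are named per the submitters' processing notes, while the counting program, annotation, strand setting and filters remain not given in the sources used here. Reads of overlapping genes are therefore uncertain. Exons of the 10 genes overlapped no other counted gene in GENCODE release 29, where names matched; SCG5 shares 11 bases with the antisense gene AC123768.1, which was not matched.

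Columns were assigned by title and groups by the genotype label. The fits used edgeR 4.0.16 (R 4.3.3): filterByExpr at default settings (minimum count 10), TMM scaling, glmQLFit and glmQLFTest, and Benjamini-Hochberg adjustment over the 18420 tested genes at 0.05. The fit had 4 residual degrees of freedom. Standard errors are the log2 fold change divided by the square root of the F statistic. Counting intervals are 95% exact conditional binomial intervals of pooled counts and cover counting error only, since PCR copies cannot be told from separate molecules here. Replicate libraries differed by more than sampling noise, with a chi-square per gene of 4.28 or more. The scripts were tested on simulated data.

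The members and lists were chosen with earlier results of these data known. The named genes are the 10 members, OTX2 and up to 6 genes per list with the smallest adjusted p under 0.05 and a mean count of at least 50; a gene that this rule picks among the transcription regulators is not reported here. Of the listed symbols, CCDC186, EIPR1 and SPX were found under older symbols through RefSeq synonyms, and SSTR3 was not matched. Alternatives were RLE, upper-quartile and no scaling factors, no filter, at least 1 CPM in 3 libraries, DESeq2 1.42.0, limma-voom (limma 3.58.1), removal of mitochondrial and ribosomal RNA genes, a threshold of 0.01, glmTreat and leaving out each library. The unfiltered fits of PCSK2 and VGF with libraries left out were added after seeing the data. Protein sequences were not used here.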

Additional observations from a re-analysis of the deposited data

How the results depend on the processing

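The 7 members that rose were called under every scaling, with limma-voom and without mitochondrial and ribosomal RNA genes. PCSK1N was the member whose call was lost at a threshold of 0.01, with DESeq2 and when control replicate 2, control replicate 3 or knockout replicate 1 was left out. Leaving out single libraries gave 6 to 7 rising members. Requiring 1 CPM in 3 libraries removed SCG2, PCSK1 and PCSK1N: 4 members rose (CHGA, CHGB, SCG3 and CPE), 3 exceeded 1.5-fold and 1 precursor fell. No member fell under any alternative. Rising precursors numbered 7 with library totals alone, 7 with DESeq2 and 11 without a filter. Against 1.5-fold, 1207 genes of the whole table were called in place of 7312, 0 other processing enzymes rose and 1 fell, 6 vesicle genes rose, 1 precursor fell, 0 receptors fell, and 8 transcription regulators rose and 0 fell. With single libraries left out, 0 to 1 vesicle genes fell (1 without control replicate 1) and 1 to 2 regulators fell (2 without control replicate 3). Control replicate 1 had 0.764% of counts from mitochondrial genes, against 0.440% to 0.601% in the others, and 7 members rose without it. The log2 change of the ratio of PCSK1 to PCSK2 ran from 2.15 to 3.26 with single libraries left out, and that of SCG5 to PCSK2 from -2.07 to -1.11. Depth limits VGF, PCSK2 and PCSK1, which held 1, 13 and 5 counts in all control libraries together. No paired analysis was possible because the labels give the 2 groups no shared replicate numbers. The replicate numbers used here follow the column order within each group and do not mark pairs.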

Other observations

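Receptors for peptides of this pathway were also measured. Of 45 genes found, 18 were tested, 9 rose and 2 fell (list median 0.67 in log2, against 0.0062 over all tested genes), and 1 of the 18 passed the filter only through the knockout libraries. The share called was 61.1%, while over all tested genes 39.7% were called, 21.2% as higher. SSTR2, a somatostatin receptor used as an imaging target in neuroendocrine tumours, stood at 75.0, 79.5 and 73.0 CPM in control replicates 1 to 3 and at 180, 204 and 190.4 CPM in knockout replicates 1 to 3. ADCYAP1R1, the receptor for the peptide PACAP, rose from 12.8 ± 0.845 to 42.7 ± 2.84 CPM (SD, n = 3 each; edgeR adjusted p = 3.71e-11). CALCRL, a receptor subunit for calcitonin gene-related peptide and adrenomedullin, rose 7.7-fold to 1.53 CPM, the oxytocin receptor OXTR 2.4-fold and GPR37 1.87-fold. NPR3, the clearance receptor for natriuretic peptides and a marker of Group 3 medulloblastoma, fell from 805 ± 5.49 to 572 ± 30.9 CPM. The other receptor that fell, named after its values were seen, was VIPR2, whose exons overlap the more abundant LINC00689. SST, the somatostatin precursor, and ADCYAP1, the PACAP precursor, were below the filter, with at most 1 and 3 counts in any library.

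TUBB3, a tubulin widely used as a neuronal marker, is listed at 0 in all 6 libraries. It shares 1584 exonic bases with AC092143.1, a protein-coding gene on the same strand, in GENCODE release 29, and how such reads were counted remains not given in the sources used here. Of the other pan-neuronal markers, ELAVL4 had 0 counts in all control libraries and 76, 99 and 76 in knockout, and RBFOX3 had 5, 3 and 3 against 77, 92 and 83. SYP rose 1.37-fold, STMN2 rose from 3.66 to 8.68 CPM and SNAP25 from 5.999 to 13.4 CPM, while SYT1 fell from 170 to 148 CPM (all named after their values were seen).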
